A study of Mus musculus with 388 samples.

Results

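The 39 mouse Hox genes were described in single stromal cells of the bone marrow, gene by gene and cell by cell. They are all the rows, of 25000 in the table, whose symbol is Hox with the cluster letter a, b, c or d and a number. Each library is 1 cell from C57BL/6 mice of 2 months with the genotype KitMerCreMer; R26tdTomato, in which tamoxifen releases a Cre recombinase made where Kit is expressed and Cre switches on a red reporter. Tamoxifen was given before birth, in the middle of gestation, to both groups, so that Tomato+ cells descend from cells in which the reporter was switched on before birth, while Tomato- cells of the same genotype and treatment carry no label. Tomato- therefore means unlabelled, which does not show that a cell's precursors lacked Kit. All cells had been sorted as PDGFRα+ and negative for CD45, Ter119 and CD31, the surface markers of blood, red and endothelial cells. The labels name neither the animals nor the bones.

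Hox genes encode transcription factors that give cells a position along the body axis. In mammals they lie in 4 clusters, HoxA to HoxD, and members with the same number in different clusters are paralogs. Low numbers are switched on towards the head and high numbers towards the tail, and in the limb buds the HoxA and HoxD genes of the highest paralog groups pattern the segments from shoulder or hip to digits. Stromal and skeletal cells are known to keep part of this pattern into adult life, and differ in it from site to site.

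The cells fall into 8 title sets and 2 title orders, whose meaning the labels do not give. Order 1 holds 94, 5 and 38 Tomato+ cells in its sets P1, P2 and P3, after 2 shallow cells of P3 were left out, and 60 Tomato- cells in its set N2. Order 2 holds 24 Tomato+ cells in each of P1 and P2, and it holds Tomato- cells in N1 (71) and N2 (70). The median total was 726174 counts in Tomato+ and 637863 counts in Tomato- cells. Since no animal is named, each group counts as 1 sample, no test was made, and the intervals given are 95% exact intervals (Clopper-Pearson for shares of cells, Poisson for sums) that cover counting error only. All 12 markers listed for Lepr+ marrow stroma were detected, among them Lepr and Cxcl12 in 100% of cells of both groups and Pdgfra, the gene of the sorting marker, in 96.8% of Tomato+ cells and 97% of Tomato- ones, and 0 of the 12 were called different by the size rule given further on. The set order 1 P2 stood apart, with 5 cells only, a summed stromal marker level of 21440 CPM against 39212 to 74475 CPM in the other sets, and an osteoblast marker level of 64953 CPM against 10606 to 24043 CPM. All 10 blood markers were met; they summed to 8.26 to 117.5 CPM in the Tomato+ sets and 88.6 to 23994 CPM in the Tomato- sets, and Ptprc, the gene of CD45, was at 0 in order 1. All 9 endothelial markers were met and summed to 4.59 to 815.9 CPM in the Tomato+ sets and 20.97 to 45.6 CPM in the Tomato- sets. Over whole groups, pericyte and smooth muscle markers summed to 134.8 CPM in Tomato+ and 354.7 CPM in Tomato- cells, Sca1+ fibroblast markers to 345 CPM in Tomato+ and 653 CPM in Tomato- cells, and erythroid markers to 63.7 CPM in Tomato+ and 95.3 CPM in Tomato- cells. The part of these other cell types in the Hox results was not tested, except that results were repeated without the cells in which Ptprc or Pecam1 reached 5 counts.

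The Hox genes found most often in these marrow stromal cells belonged to the HoxA and HoxC clusters. At least 1 cell had a count of 26 of the 39 genes among Tomato+ cells and of 25 among Tomato- cells, where 59.3% of all genes of the table were met among Tomato+ cells and 61.5% among Tomato- cells. A gene was called detected when at least 10% of the cells of a group had a count, which held for 9 Hox genes in Tomato+ and 9 in Tomato- cells; over all genes the share was 37.4% in Tomato+ and 38.7% in Tomato- cells. All 9 genes detected in each group belonged to HoxA or HoxC. The 12 genes without a single count in any of the 386 cells were Hoxb1, Hoxb7, Hoxb9, Hoxb13, Hoxc13, Hoxd1, Hoxd3, Hoxd4, Hoxd10, Hoxd11, Hoxd12 and Hoxd13. By a floor of 3 cells, a rule apart from the exact intervals, finding 0 cells allows a share of up to 1.62% of Tomato+ cells and 1.49% of Tomato- ones. Of the 9 HoxD genes only Hoxd8 and Hoxd9 were met, in 6 and 2 Tomato+ cells and in 9 and 2 Tomato- cells.

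**Figure D1:**
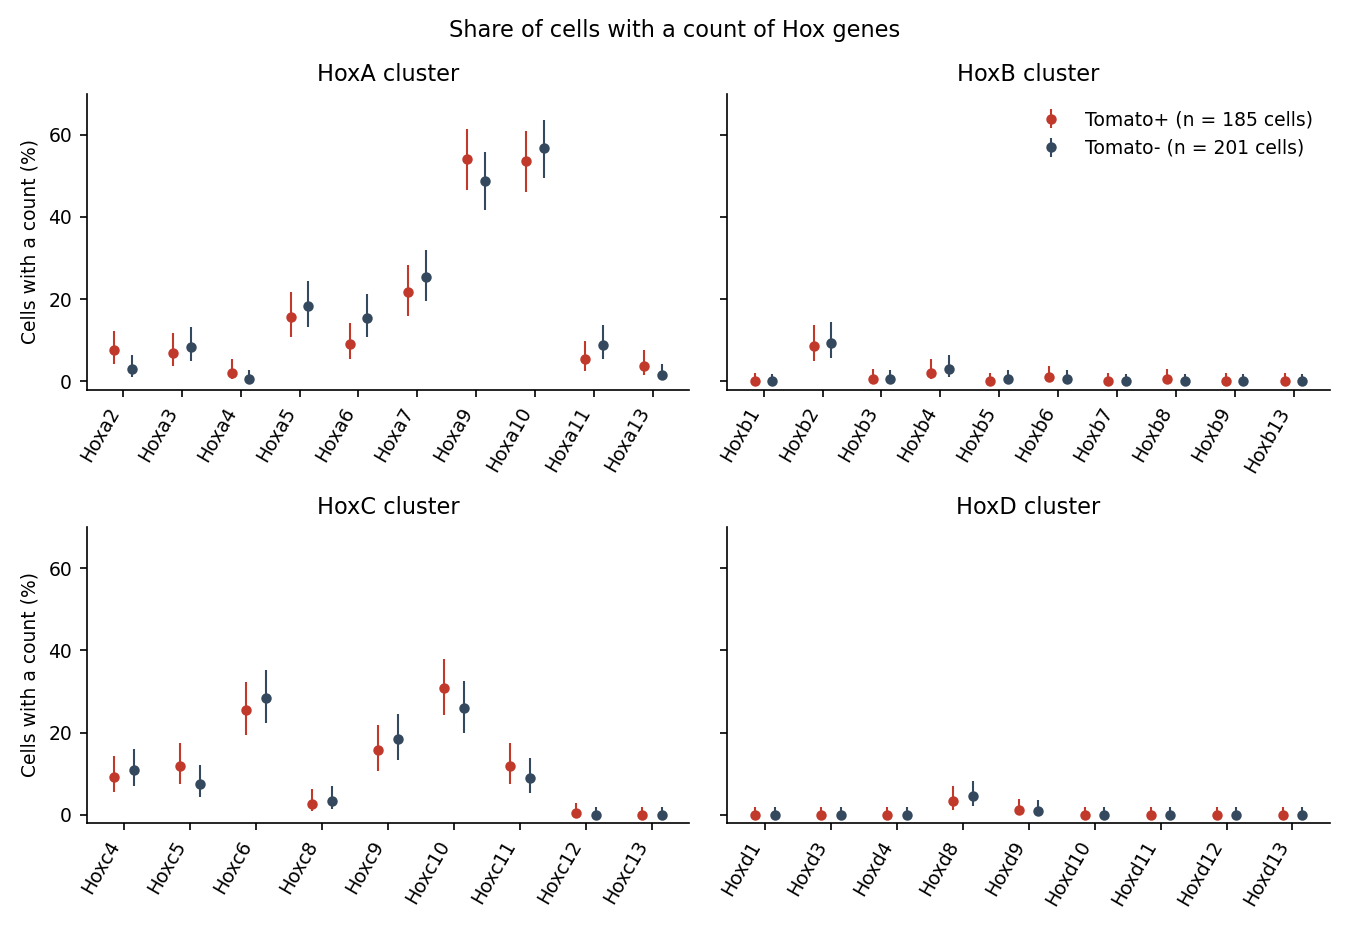
Share of cells with at least 1 count of Hox genes, by cluster, in Tomato+ (red) and Tomato- cells (dark); points are shares and bars exact 95% intervals that cover counting error only. Hoxa9 and Hoxa10 stand highest, with counts in 48.8% to 56.7% of cells (24.9% to 40.8% once counts under 1% of the highest in the same library pool are set to 0), and no gene of HoxB or HoxD reaches 10%.

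The HoxA cluster lies on chromosome 6 of GRCm38 and is read from the minus strand. Hoxa9 spans 52223100 to 52231089 and Hoxa10 spans 52231197 to 52240854, side by side. HoxC lies on chromosome 15, where Hoxc10 spans 102966796 to 102971893 and Hoxc6 spans 102998257 to 103011881, both on the plus strand. Hoxa10 and its HoxD paralog Hoxd10, on chromosome 2 from 74691924 to 74695105, show how far paralogs differed, since a count of the first was found in 213 of 386 cells and of the second in 0. The promoter windows of these paralogs and of the neighbouring pair of group 9, 250 bases before to 50 bases after the RefSeq start on GRCm38.p6, are shown with each CG dinucleotide in capitals, because CG-rich promoters are the usual landing places of the Polycomb and Trithorax proteins that hold Hox genes off or on.
Hoxa9: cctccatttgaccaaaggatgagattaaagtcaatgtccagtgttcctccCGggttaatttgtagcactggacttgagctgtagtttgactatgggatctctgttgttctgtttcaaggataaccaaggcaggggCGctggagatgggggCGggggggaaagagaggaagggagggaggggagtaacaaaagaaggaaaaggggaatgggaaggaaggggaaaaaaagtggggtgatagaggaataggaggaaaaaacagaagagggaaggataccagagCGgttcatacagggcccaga
Hoxa10: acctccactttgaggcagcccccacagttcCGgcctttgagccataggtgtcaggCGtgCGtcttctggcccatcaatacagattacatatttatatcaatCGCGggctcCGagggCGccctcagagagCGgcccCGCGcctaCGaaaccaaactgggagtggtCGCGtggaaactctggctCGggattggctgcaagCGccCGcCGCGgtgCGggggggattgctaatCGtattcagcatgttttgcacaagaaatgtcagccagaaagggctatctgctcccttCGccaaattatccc
Hoxd9: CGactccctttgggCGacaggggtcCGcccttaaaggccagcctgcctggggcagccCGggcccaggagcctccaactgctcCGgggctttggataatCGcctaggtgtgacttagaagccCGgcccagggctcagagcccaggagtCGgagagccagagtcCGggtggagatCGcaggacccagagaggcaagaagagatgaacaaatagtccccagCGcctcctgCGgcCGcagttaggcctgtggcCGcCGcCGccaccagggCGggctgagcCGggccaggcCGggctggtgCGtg
Hoxd10: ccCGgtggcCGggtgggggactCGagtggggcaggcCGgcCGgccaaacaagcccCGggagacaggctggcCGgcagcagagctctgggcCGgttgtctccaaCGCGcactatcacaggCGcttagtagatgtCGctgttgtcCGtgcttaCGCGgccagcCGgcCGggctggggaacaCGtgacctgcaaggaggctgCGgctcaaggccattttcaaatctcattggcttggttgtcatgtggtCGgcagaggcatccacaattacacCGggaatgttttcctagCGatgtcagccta
The windows are chr6:52227321-52227620 (minus strand) for Hoxa9, chr6:52234890-52235189 (minus strand) for Hoxa10, chr2:74697513-74697812 (plus strand) for Hoxd9 and chr2:74691641-74691940 (plus strand) for Hoxd10. They held 4 CG dinucleotides at Hoxa9, 21 at Hoxa10, 20 at Hoxd9 and 22 at Hoxd10, where the median of 32544 mouse promoter windows was 7. The detected Hoxa10 and the undetected Hoxd10 had nearly the same number of CG dinucleotides, and the detected Hoxa9 had the fewest of the 4. A second RefSeq start of Hoxa10, at chr6:52240805-52241104, had 12. Windows were listed for 22 of the 39 Hox genes, 24 windows in all, with a median of 14.5 CG dinucleotides. On both strands, the letters TATAAA were found in 4 of these 24 windows, against 13.6% of all windows, and in the Hoxa10 window shown but not in the other 3 shown. The letters TTTATNG, of the kind posterior Hox proteins bind, stood in 2 of the 24, against 10.8% of all windows, and TGATTNAT, of the kind Hox proteins bind together with Pbx, in 2, against 3.23%. A match is a run of letters and not a bound site.

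Most cells had a small set of Hox genes. The median was 3 Hox genes per cell in Tomato+ cells (quartiles 2 and 4, highest 7) and 3 in Tomato- cells (quartiles 2 and 4, highest 9). At least 1 Hox gene had a count in 93.5% of Tomato+ cells (interval 88.9% to 96.6%) and in 94% of Tomato- cells (interval 89.8% to 96.9%). In each group 12 cells had none. At a stricter threshold of 5 counts, 76.2% of Tomato+ cells and 74.6% of Tomato- cells had a Hox gene. Medians by title set lay between 2 and 4 outside order 1 P2, where it was 1, and order 1 P3 had the largest share of cells without any Hox count, 7 of 38. Depth moved with the number of Hox genes: across 386 cells that differ in library and set, the number correlated with the log10 of total counts with Pearson r = 0.288 and Spearman rho = 0.286. When each cell was thinned to 150000 counts and 4 Tomato+ and 13 Tomato- shallower cells were left out, the median was 2 Hox genes in both groups.

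**Figure D2:**
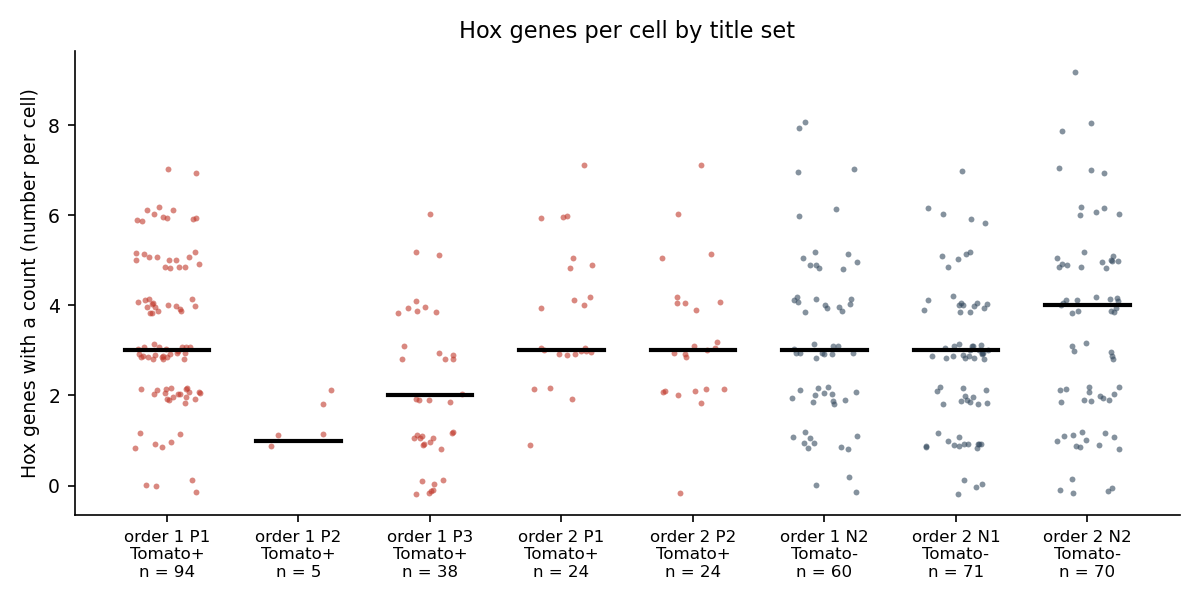
Number of Hox genes with a count in each cell, by title set, with Tomato+ sets (red) left of Tomato- sets (dark); each point is 1 cell, jittered, and the black bar is the set's median. Medians are 3 or 4 in 6 of the 8 sets, 2 in order 1 P3 and 1 in the 5 cells of order 1 P2.

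HoxA was the commonest cluster within cells. A HoxA gene had a count in 88.1% of Tomato+ cells and 84.6% of Tomato- cells, and a HoxC gene in 68.1% of the Tomato+ and 65.2% of the Tomato- cells. At 5 counts or more, a HoxA gene was left in 62.7% of Tomato+ cells and 63.7% of Tomato- cells. A HoxC gene was then left in 45.4% of Tomato+ cells and 44.3% of Tomato- cells. HoxB genes were met in 21 Tomato+ cells (11.4%) and 25 Tomato- cells (12.4%), and HoxD genes in 7 Tomato+ cells (3.78%) and 11 Tomato- cells (5.47%). HoxA and HoxC were found together in 63.2% of Tomato+ cells (interval 55.9% to 70.2%) and 56.7% of Tomato- cells (interval 49.6% to 63.7%). The orders went opposite ways: in order 1 the share was 59.1% of Tomato+ cells (interval 50.4% to 67.4%) and 68.3% of Tomato- cells (interval 55.04% to 79.7%), and in order 2 it was 75% of Tomato+ cells (interval 60.4% to 86.4%) and 51.8% of Tomato- cells (interval 43.2% to 60.3%). The intervals overlap in order 1 and not in order 2, and they cover counting error only. HoxA without HoxC was seen in 24.9% of Tomato+ cells and 27.9% of Tomato- ones, and HoxC without HoxA in 4.86% of Tomato+ cells and 8.46% of Tomato- ones. A cell whose only Hox genes came from HoxB or HoxD was found 1 time in Tomato+ and 2 times in Tomato- cells.

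By paralog group, cells with a gene of groups 9 to 13 were the most common, and few reached group 13. Genes of groups 9 to 13 had a count in 84.9% of Tomato+ cells and 83.6% of Tomato- cells and held 74.6% of all Hox counts in Tomato+ and 64.3% in Tomato- cells. This share of counts went opposite ways in the orders. It was 78.8% in Tomato+ and 63.9% in Tomato- cells of order 1, and 53.7% in Tomato+ and 64.6% in Tomato- cells of order 2. The 5 cells of order 1 P2 brought 4008 of the 22350 Tomato+ counts. At 5 counts or more, groups 9 to 13 were met in 62.7% of Tomato+ cells and 60.2% of Tomato- ones. Groups 5 to 8 were met in 61.1% of Tomato+ cells and 61.7% of Tomato- ones, and groups 1 to 4, the anterior genes, in 31.9% of Tomato+ cells and 33.8% of Tomato- ones. The highest group found in a cell was 10 in 50.8% of Tomato+ cells and in 50.7% of Tomato- cells. It was 11 in 16.2% of Tomato+ cells and 16.4% of Tomato- ones and 9 in 13.5% of Tomato+ cells and 14.9% of Tomato- ones. Group 13, which patterns the digits and the end of the trunk, was reached in 7 Tomato+ cells (3.78%) and 3 Tomato- cells (1.49%), in each case through Hoxa13.

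Levels are compared between genes as CPM of the summed counts per kilobase of exon. On that scale the highest over all cells were Hoxa10 (14.7), Hoxa9 (11.1) and Hoxc10 (10.6), then Hoxa5 (5.48), Hoxa7 (4.44) and Hoxc9 (3.51). The set values of neighbours in this order overlapped widely, so the order within it is a description of the sums. Of 27 genes met, the lowest, Hoxb8, had 0.00283 CPM per kilobase from a single cell. Hox counts were often small: of 1209 values above 0, 504 (41.7%) were of 1 to 4 counts, and 18 (1.49%) were not whole numbers in the deposited table.

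Hoxa10, a group 10 gene that patterns the upper segments of the limb and the lower spine, was the Hox gene found in the most cells over both groups, though Hoxa9 was ahead of it by a little among Tomato+ cells. It had a count in 53.5% of Tomato+ cells (interval 46% to 60.9%) and 56.7% of Tomato- cells (interval 49.6% to 63.7%), and at least 5 counts in 31.4% of Tomato+ cells and 35.8% of Tomato- ones. The level in Tomato+ sets was 28.9 CPM in order 1 P1, 0.459 CPM in order 1 P2, 107.02 CPM in order 1 P3, 34.2 CPM in order 2 P1 and 55.3 CPM in order 2 P2. In Tomato- sets it was 48.1 CPM in order 1 N2, 69.6 CPM in order 2 N1 and 35.6 CPM in order 2 N2. The Tomato- sets lay within the range of the Tomato+ sets. The highest single cell had 559 CPM among Tomato+ and 922 CPM among Tomato- cells. The log2 ratio of CPM + 1, Tomato+ over Tomato-, was -0.06 in order 1 and -0.13 in order 2. After thinning the share of cells was 35.4% in Tomato+ (interval 28.4% to 42.8%) and 45.7% in Tomato- cells (interval 38.5% to 53.2%), still with overlapping intervals.

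Hoxa9, whose protein patterns the trunk and which is also a regulator of blood progenitors, was met in 54.1% of Tomato+ cells (interval 46.6% to 61.4%) and 48.8% of Tomato- cells (interval 41.7% to 55.9%). At 5 counts or more it was left in 24.9% of Tomato+ cells and 26.4% of Tomato- ones. The level in Tomato+ sets was 32.9 CPM in order 1 P1, 1838 CPM in order 1 P2, 71.8 CPM in order 1 P3, 13.2 CPM in order 2 P1 and 19.3 CPM in order 2 P2. In Tomato- sets it was 143.6 CPM in order 1 N2, 31.8 CPM in order 2 N1 and 27.8 CPM in order 2 N2. Within each order the Tomato- sets were above the Tomato+ sets, with the exception of order 1 P2. A single cell of that set held 3999 Hoxa9 counts (5490 CPM), 99.9% of the set's and 43.9% of all Tomato+ Hoxa9 counts. All 16 cells that shared this cell's library code had a Hoxa9 count, but only 5 of them had 5 or more; among the other cells of order 1, 56.4% had a count and 24.3% had 5 or more. Small Hoxa9 counts thus moved with the library code. Counts under 1% of the highest in the same pool were therefore set to 0 as an alternative, which left Hoxa9 in 24.9% of Tomato+ cells and 26.9% of Tomato- ones and Hoxa10 in 35.1% of Tomato+ cells and 40.8% of Tomato- ones. Under that alternative Hoxa9 came after Hoxc6, which was left in 25.4% of Tomato+ cells and 28.4% of Tomato- ones. Hoxc10 (24.3% of Tomato+ cells, 20.4% of Tomato- ones) and Hoxa7 (16.8% of Tomato+ cells, 19.4% of Tomato- ones) then fell short of 25% in both groups.

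Hoxc10, the HoxC paralog of Hoxa10 and a gene of the lumbar trunk and the hindlimb, had a count in 57 Tomato+ cells (30.8%, interval 24.2% to 38%) and 52 Tomato- cells (25.9%, interval 19.97% to 32.5%). The level in Tomato+ sets was 18.6 CPM in order 1 P1, 0.918 CPM in order 1 P2, 76.1 CPM in order 1 P3, 14.2 CPM in order 2 P1 and 2.20 CPM in order 2 P2. In Tomato- sets it was 28.9 CPM in order 1 N2, 7.69 CPM in order 2 N1 and 8.82 CPM in order 2 N2. The groups overlapped, and 1 cell held 24.6% of all Tomato+ counts. Order 1 gave a log2 ratio of 0.11 and order 2 gave -0.16. In the annotation Hoxc10 shares 8.70% of its exonic bases with Hoxc5 on the same strand, so part of its reads could be counted for either.

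Hoxc6, a gene of the thoracic trunk, and Hoxa7, also thoracic, made up the rest of the genes in at least 25% of cells of a group. Hoxc6 had a count in 25.4% of Tomato+ cells (interval 19.3% to 32.3%) and 28.4% of Tomato- cells (interval 22.2% to 35.1%). Its level in Tomato+ sets was 7.94 CPM in order 1 P1, 0 in order 1 P2, 5.56 CPM in order 1 P3, 9.97 CPM in order 2 P1 and 0.507 CPM in order 2 P2, and in Tomato- sets 7.18 CPM in order 1 N2, 6.28 CPM in order 2 N1 and 5.65 CPM in order 2 N2. The Tomato- sets were close together and within the Tomato+ range. Hoxa7 had a count in 21.6% of Tomato+ cells (interval 15.9% to 28.3%) and 25.4% of Tomato- cells (interval 19.5% to 32%). Its level in Tomato+ sets was 10.4 CPM in order 1 P1, 0 in order 1 P2, 8.92 CPM in order 1 P3, 6.67 CPM in order 2 P1 and 25.2 CPM in order 2 P2, and in Tomato- sets 22.1 CPM in order 1 N2, 13.4 CPM in order 2 N1 and 9.83 CPM in order 2 N2. The log2 ratio of Hoxa7 was -1.09 in order 1 and 0.56 in order 2, opposite signs. Hoxa7 shares 20.4% of its exonic bases with the antisense gene Hoxaas3, and without strand in the counting the reads of the pair cannot be told apart.

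**Figure D3:**
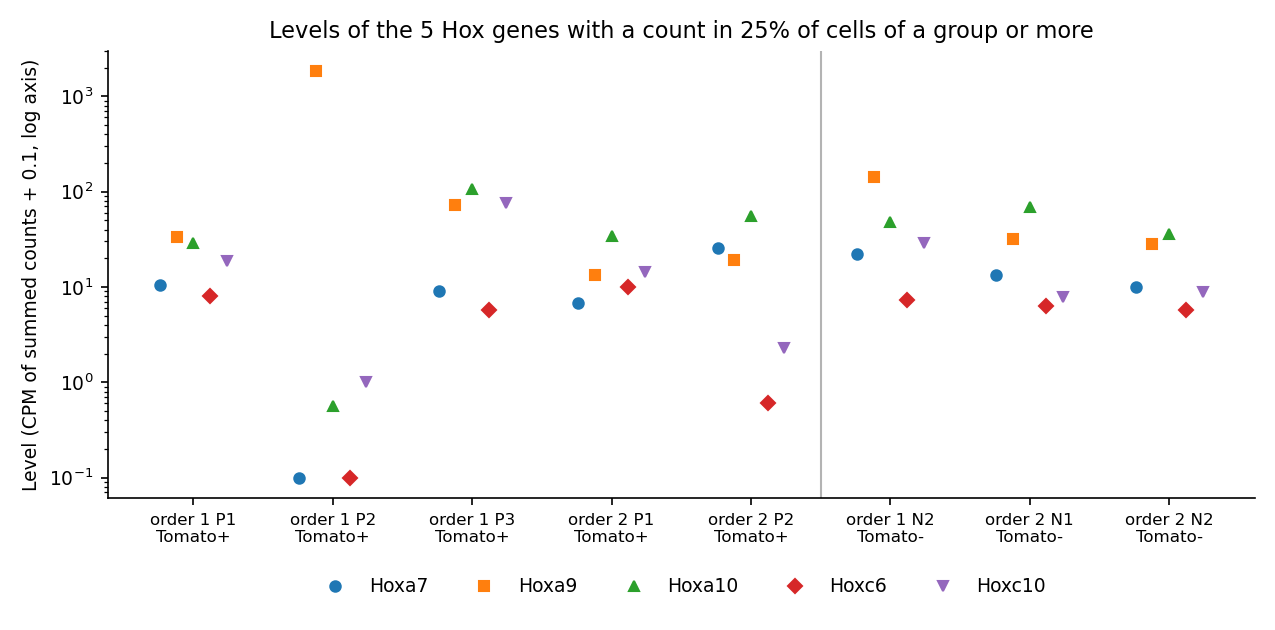
Level of the 5 Hox genes with a count in at least 25% of cells of a group, as CPM of the summed counts of each title set plus 0.1, on a log axis; Tomato+ sets stand left of the grey line and Tomato- sets right of it. Apart from order 1 P2, where 1 cell brings Hoxa9 to 1838 CPM and Hoxa7 and Hoxc6 are at 0, each gene's Tomato+ and Tomato- sets overlap.

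The other detected genes lay just under or near the thresholds. Hoxa5 and Hoxc9 each had a count in 15.7% of Tomato+ cells and 18.4% of Tomato- ones, the next below the 25% used above. Around the 10% line were Hoxc5 (11.9% of Tomato+ cells and 7.46% of Tomato- ones), Hoxc11 (11.9% of Tomato+ cells, 8.96% of Tomato- ones), Hoxa6 (9.19% of Tomato+ cells, 15.4% of Tomato- ones) and Hoxc4 (9.19% of Tomato+ cells, 10.9% of Tomato- ones). Within each order the Hoxa6 level was higher in Tomato+ cells, unlike its share over both orders. It was 0.888 CPM in Tomato+ and 0 CPM in Tomato- cells of order 1. In order 2 it was 6.40 CPM in Tomato+ and 4.54 CPM in Tomato- cells. Just outside the 10% line was Hoxb2, the commonest HoxB gene, with 8.65% of Tomato+ cells and 9.45% of Tomato- ones. The other genes met had a count in at most 8.96% of the cells of a group, a share reached by Hoxa11 in Tomato- cells, against 5.41% in Tomato+ cells. Hoxa11, which patterns the forearm and lower leg, shares 34.98% of its exonic bases with its antisense gene Hoxa11os. Several low genes rested on 1 cell. In Tomato- cells, 1 cell held 93.9% of the Hoxa2 counts, and in Tomato+ cells 1 cell held 90.3% of the Hoxd8 counts.

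Between Tomato+ and Tomato- cells few Hox levels differed in both orders. By the size rule, a gene was called when the groups differed by more than 1.5-fold in the same direction in both orders; it also needed 5 CPM or more, and counts in 10% of cells or more, in the group where it was higher. Of 9 Hox genes that could be called, 0 were higher in Tomato+ cells and 2 were lower, Hoxa9 and Hoxc4. Over the 9581 genes that could be called, 4.57% were higher and 5.87% lower, 10.4% in either direction, and nothing is read from 0 and 2 of 9 members beside those shares. The median log2 ratio of the 9 was -0.89 in order 1 and -0.19 in order 2, where all genes that could be called had 0.08 and -0.04. Averaged over the orders, 8 of the 9 ratios were below 0, with a median of -0.26 against 0.01 for all genes, but only 4 of the 9 had the same sign in both orders. Hoxc4 reached the minimum level and share only in Tomato- cells, and Hoxc11 only in Tomato+ cells. These 2 thus entered through the group where they were higher, and nothing is read from the signs or the median.

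Hoxa9 had 77.1 CPM in Tomato+ and 143.6 CPM in Tomato- cells of order 1, and 16.7 CPM in Tomato+ and 29.6 CPM in Tomato- cells of order 2. This is -0.89 on the log2 scale in order 1 and -0.79 in order 2, or -0.84 on average (counting interval -0.96 to -0.72). The call changed with the choice of cells. The mean ratio was -0.12, and not called, without order 1 P1, and it was -1.27 without order 1 P2, and 0.10 when both orders were summed. It was -0.41, and no longer called, as the mean of per-cell CPM. Among library pools that held both groups it was -1.24 but was not called. Without the cells with 5 counts of Ptprc or Pecam1 it was -0.91, still called.

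Hoxc4, a gene of the neck and upper trunk, had 2.92 CPM in Tomato+ and 28.7 CPM in Tomato- cells of order 1, and 0.257 CPM in Tomato+ and 2.60 CPM in Tomato- cells of order 2. This is -2.92 on the log2 scale in order 1 and -1.52 in order 2, or -2.22 on average (counting interval -2.48 to -1.92). The share of cells with a count was 9.19% in Tomato+ and 10.9% in Tomato- cells, so that the difference in level lay in few cells. The cell with the most counts held 470, which is 49.7% of the order 1 N2 sum. Without the top cell of each group and order the ratio was -1.99, and in order 2 the Tomato+ sum was 8 counts from 1 cell. Without order 1 N2 the ratio was -1.52 and Hoxc4 no longer reached the minimum level.

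Hoxa5, Hoxa7, Hoxc9 and Hoxc11 differed by more than 1.5-fold in CPM + 1 in order 1 only. Hoxc11, which with its paralogs patterns the lower hindlimb, had 8.26 CPM in Tomato+ and 0.335 CPM in Tomato- cells of order 1, against 1.19 CPM in Tomato+ and 1.90 CPM in Tomato- cells of order 2. Hoxc9 had 7.09 CPM in Tomato+ and 27.5 CPM in Tomato- cells of order 1, and 4.25 CPM in Tomato+ and 4.98 CPM in Tomato- cells of order 2. Hoxa5 had 7.51 CPM in Tomato+ and 26.5 CPM in Tomato- cells of order 1, and 10.7 CPM in Tomato+ and 7.69 CPM in Tomato- cells of order 2. Order 1 has a single Tomato- set, so that a difference seen there alone cannot be told apart from that set.

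**Figure D4:**
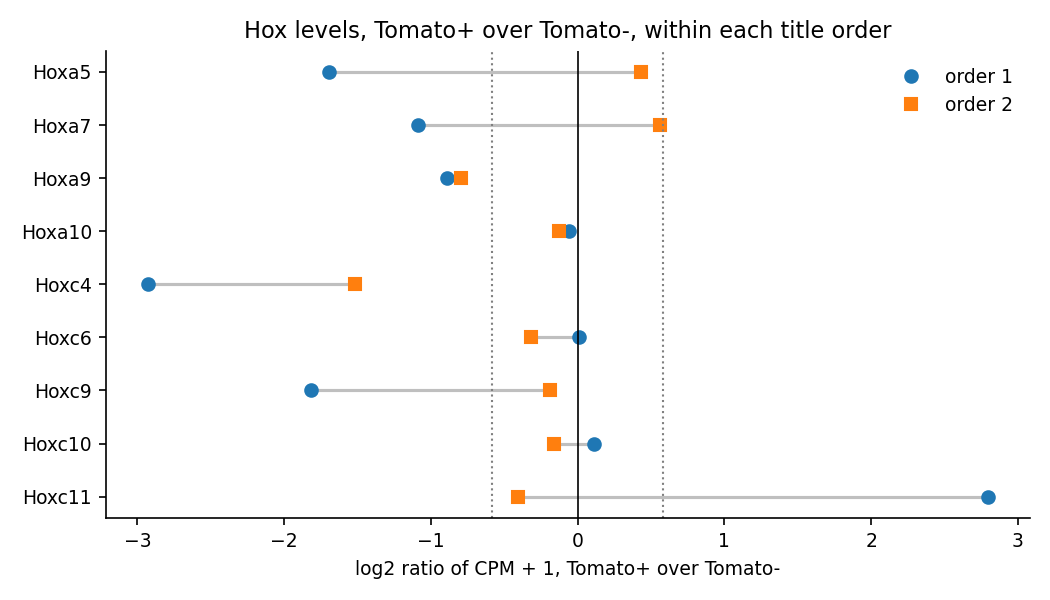
Log2 ratio of CPM + 1, Tomato+ over Tomato-, of the 9 Hox genes that could pass the size rule, in order 1 (circles) and order 2 (squares); dotted lines mark 1.5-fold. Only Hoxa9 and Hoxc4 lie beyond a dotted line on the same side in both orders, while Hoxa10, Hoxc6 and Hoxc10 lie between the lines in both.

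Within cells, a common Hox gene was in most pairs found somewhat more often where its partner was also found. Of the 10 pairs among Hoxa7, Hoxa9, Hoxa10, Hoxc6 and Hoxc10, 9 showed a higher share of cells with the second gene among cells with the first than among cells without it, the exception being Hoxa7 with Hoxc10. It was 10 of 10 pairs at 5 counts or more and 8 of 10 after thinning, where Hoxa10 with Hoxc6 stood at 40.5% with and 40.7% without. Hoxa10 was found in 69.7% of cells with Hoxc10 (interval 60.2% to 78.2%) and in 49.5% of 277 cells without it (interval 43.4% to 55.5%). It was found in 69.2% of 91 cells with Hoxa7, against 50.8% of 295 cells without it, and in 61.1% of cells with Hoxa9, against 48.9% of cells without it. The cells with the partner gene were also deeper, with a median of 731488 counts in cells with Hoxc10 and 667796 in cells without. After thinning to 150000 counts Hoxa10 was still found in 54.8% of 84 cells with Hoxc10 and in 36.5% of 285 cells without it. Hoxc6 and Hoxa10, in contrast, were met at nearly equal shares, with Hoxa10 in 55.8% of cells with Hoxc6 and in 54.96% of 282 cells without it, and so were Hoxc6 and Hoxa9, with Hoxa9 in 52.9% of cells with Hoxc6 and in 50.7% of cells without it.

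Hox counts were fewer in cells with blood reads. There were 12 cells with at least 5 counts of the blood gene Ptprc, 0 among Tomato+ and 12 among Tomato- cells, all in order 2. Hoxa10 had a count in 1 of these 12 (interval 0.21% to 38.5%), which was below 5 counts, at a median depth of 853826 counts. Hoxc10 had one in 0 (interval 0% to 26.5%), Hoxa7, Hoxa9 and Hoxb4 in 2 each, Hoxc6 in 1 and any Hox gene in 8. Of the order 2 cells without such reads of Ptprc or Pecam1, 61.1% had a Hoxa10 count and 25.3% a Hoxc10 count. The Hoxc10 share lies within the interval of the 12 cells. In the same order 2 cells, 28.4% had a Hoxa7 count, 43.2% a Hoxa9 count and 32.1% a Hoxc6 count. The 28 cells with at least 5 counts of the endothelial gene Pecam1 were 13 Tomato+ and 15 Tomato- cells. They had a count of Hoxa10 in 53.6% and of Hoxc10 in 28.6%. Only these shares were close to those of the 351 cells without such reads of either gene, 56.1% (Hoxa10) and 28.8% (Hoxc10). The level of Hoxa10 was 19.4 CPM in the 28 cells and 51.5 CPM in the 351. For Hoxc10 it was 5.68 CPM in the 28 cells and 22.02 CPM in the 351. All Hox genes together had 88.5 CPM in the 28 cells and 229.97 CPM in the 351. The cause of the lower levels was not tested. The Ptprc and Pecam1 cells overlap, since 35 cells had 5 counts of either gene. All of these cells also had Lepr counts.

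Genes of the partners of Hox proteins had RNA counts, and protein was not measured. Beside the lists below, 59.3% of all genes were met among Tomato+ cells and 61.5% among Tomato- cells. The share detected over all genes was 37.4% in Tomato+ and 38.7% in Tomato- cells. TALE cofactors, the Meis, Pbx and Pknox homeodomain proteins that bind DNA together with Hox proteins, were met in 9 of 9 cases and 7 were detected. Pknox2 and Pknox1 were among the detected ones. Of 6 that could be called, 0 were higher and 0 lower in Tomato+ cells, and their median log2 ratio was 0.26. Of 13 chromatin regulators known to hold Hox genes on or off, 13 were met and 12 could be called, of which 0 were higher and 2 lower in Tomato+ cells; their median log2 ratio was 0.21, where all genes that could be called had 0.01 and 4.57% of them were called higher and 5.87% lower. The pair called lower were Ezh2, the Polycomb histone methyltransferase, with 13.2 CPM in Tomato+ and 51.2 CPM in Tomato- cells, and its partner Suz12, with 12.6 CPM in Tomato+ and 27.3 CPM in Tomato- cells. The 10 blood markers also summed to 54.1 CPM in Tomato+ and 11305 CPM in Tomato- cells, and their part in this difference was not tested. The genes of highest level in that list were Kdm6b, a demethylase that acts against Polycomb, Kmt2a, a Trithorax-type methyltransferase, and Ash2l, and none of the 3 was called. Of 10 genes that make, clear or read retinoic acid, the signal that sets Hox genes on in the embryo, 9 were met, 6 detected and 0 of 6 called, with a median log2 ratio of 0.12. Aldh1a2, the main retinoic acid synthase, had a count in 95.7% of Tomato+ cells and 93% of Tomato- ones, with 288 CPM in Tomato+ and 435 CPM in Tomato- cells.

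A few limb genes other than Hox were found in most cells. Of 12 limb genes, 11 were met and 4 detected, Prrx1, Shox2, Tbx15 and Pitx1, where 37.4% of all genes were detected in Tomato+ and 38.7% in Tomato- cells. The other 8 limb genes were in under 10% of the cells of each group. Prrx1, the general limb mesenchyme gene, had a count in 94.1% of Tomato+ cells and 94.5% of Tomato- ones. Shox2, a gene of the upper segment of both forelimb and hindlimb, had one in 84.3% of Tomato+ cells and 73.1% of Tomato- ones. Pitx1, which specifies the hindlimb, had a count in 25.9% of Tomato+ cells and 23.4% of Tomato- ones, whereas the forelimb gene Tbx5 had one in 2.70% of Tomato+ cells and 1.49% of Tomato- ones and the hindlimb gene Tbx4 in 1.08% of Tomato+ cells and 1.49% of Tomato- ones. None of the 4 limb genes that could be called was called, and their median log2 ratio was -0.39. Hox genes in cells with and without Pitx1 were compared after the values were seen. At 1 count, Hoxc10 was in 30.5% of the cells with Pitx1 and 27.5% of the 291 cells without, Hoxa9 in 57.9% with and 49.1% without, Hoxa10 in 64.2% with and 52.2% without, and Hoxc9 in 26.3% with and 14.1% without. At 5 counts of both genes, Hoxc10 was in 31.3% with and 14.4% without, Hoxa9 in 43.3% with and 21.9% without, Hoxa10 in 40.3% with and 32.3% without, and Hoxc9 in 20.9% with and 8.15% without. The size of the difference thus moved with the count required for Hoxc10 and Hoxa9. Median depth at 5 counts was 731795 counts in cells with Pitx1 and 665555 in cells without.

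Of 16 genes of the head skeleton, 11 were met and 4 detected, among them Dlx5, which the limb skeleton also uses, and Alx4. Alx4 was the 1 called, higher in Tomato+ cells, with 7.14 CPM in Tomato+ and 3.09 CPM in Tomato- cells. It reached the minimum of 5 CPM only in Tomato+ cells, the group where it was higher. The median log2 ratio of the 3 that could be called was 0.84. Over all genes that could be called 4.57% were higher, and nothing is read from 1 of 3 or from that median. Otx2, Dlx2, Lhx6, Lhx8 and Barx1, genes of the forebrain level and the jaw, had 0 counts in any cell. Of 7 genes of the vertebral column, 5 were met and 2 detected, Meox1 and Tbx18, neither called, with a median log2 ratio of -0.21. Pax1 and Uncx, which mark the sclerotome of the spine, had 0 counts.

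**Figure D5:**
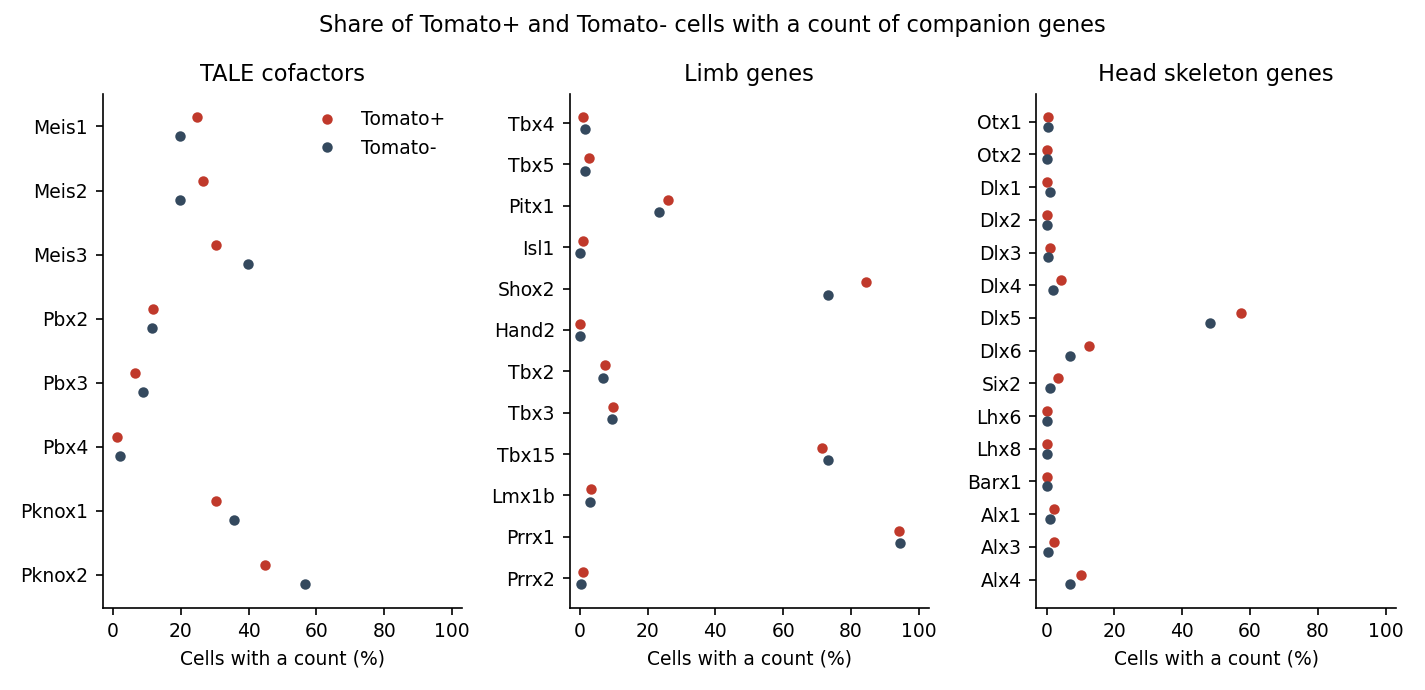
Share of cells with a count of TALE cofactors, limb genes and head skeleton genes in Tomato+ (red) and Tomato- cells (dark). Prrx1, Shox2 and Tbx15 are in at least 71.4% of cells of both groups, Pitx1 is in 25.9% of Tomato+ cells and 23.4% of Tomato- ones, and the head genes shown other than Dlx5 are in at most 12.4% of cells of a group.

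Of 10 noncoding genes of the clusters, 8 were in the table, 7 were met and 4 detected. Hotairm1, from the HoxA cluster, was in the most cells, with a count in 21.1% of Tomato+ cells and 21.9% of Tomato- ones. Hoxaas2 was highest in CPM, with 8.48 CPM in Tomato+ and 3.89 CPM in Tomato- cells. Of 2 that could be called 1 was called, Hoxa11os, with 5.03 CPM in Tomato+ and 2.27 CPM in Tomato- cells. Hoxaas2 and Hoxa11os each reached the minimum of 5 CPM only in Tomato+ cells, the group where they were higher. The median log2 ratio was 1.17. Nothing is read from this median, or from 1 of 2 where 4.57% of all genes were called higher. Hotair, transcribed from HoxC, had a count in 1.62% of Tomato+ cells and 1.49% of Tomato- ones, and Hottip, from the far end of HoxA, in 0 Tomato+ and 1 Tomato- cell. The 6 microRNA genes of the clusters and the 8 relatives beside or outside them, the Cdx, Evx and Gsx genes and Pdx1, had no counts; polyA selection does not capture mature microRNAs.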

How the data were processed

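Each of the 388 libraries is 1 cell, and their values stand in 1 table of 25000 genes. Per the file headers and values, the authors deposited expected counts, which can hold fractions (4.91% of the values above 0 did). Named in the submitters' processing notes are GRCm38, StringTie 1.3.3b, HTSeq 0.6.0 and HISAT; what each did, the annotation and the use of strand are not stated there. No molecular identifiers are mentioned, so amplified copies are counted.

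Tamoxifen was given at embryonic days 12.5 and 14.5. Expected counts were rounded. A cell needed 1000 genes and 10000 counts to be kept, which left 386 (185 Tomato+ and 201 Tomato-; total counts 18031 to 3833473, summing to 142533338 in Tomato+ and 125804595 in Tomato- cells). Columns were matched by name to a group and title set, not to single cells; 0 columns were unused. Counts were summed per group and order and scaled to CPM. No test was made; a size rule and percent of cells stand in its place. The size rule was tested on simulated data with counting noise only, so how often it calls genes through cell-to-cell or set-to-set spread is unknown. Hox genes with a count in at least 25% of cells of a group are described in full, the rest by counts and ranges, companion lists (TALE, limb, head, axial, chromatin, retinoic acid, cluster neighbours, noncoding, and microRNA genes added after the data were seen) by counts and up to 3 members of highest level. Ezh2, Suz12, Pitx1, Tbx5, Tbx4, Hoxa11os, Hotair, Hottip and the genes at 0 were named after their values were seen, and so were Hoxc4, Hoxc9, Hoxc11 and Hoxa5. Members and lists were chosen with earlier results of these data known. Coordinates, exon lengths and overlaps come from GENCODE M21, and promoter windows from RefSeq (GRCm38.p6). Python 3.11.15, pandas 2.3.3, SciPy 1.17.1 and, for TMM-scaled totals only, edgeR 4.0.16 were used. Library pools were the 12 codes in the order 1 column names, of which 7 hold both groups, and in order 2 the sets of the same number, an assumption. Doublets were not called. Results for a few genes are not reported here, in the text or the figures.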

Additional observations from a re-analysis of the deposited data

How the results depend on the processing

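No paired analysis was possible because no test was made, and the cell numbers in the titles pair no samples. Of the alternatives for the main counts and medians, 9 moved. The others stayed within counting bounds, for the median log2 ratio, or within 1.5 times the value reported, for the rest. The counting bounds, -0.45 to -0.08, are medians of the single genes' bounds from Poisson intervals. They do not cover the spread between cells or sets. At 5 counts or more, 5 Hox genes were detected in Tomato+ cells and their median was 1 Hox gene per cell. The number of Hox genes lower in Tomato+ cells was 1 with the mean of per-cell CPM (Hoxc4) and 1 among pools or sets with both groups (Hoxc4). Of all genes that could be called, 4.75% were lower in the first of these settings and 3.17% in the second. The number higher was 2 with both orders summed (Hoxc10 and Hoxc11) and 1 with no minimum level or share (Hoxa13). With both orders summed no agreement between orders was needed. There 16.3% of all genes that could be called were higher and 19.3% lower, and Hoxc4 and Hoxc9 were lower. With no minimum, 4.98% of all genes were higher. Hoxa9 turned to 0.10 on the log2 scale with both orders summed, where 43.9% of its Tomato+ counts come from 1 cell.

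When each title set was left out in turn, the number lower ran from 1 to 3 (1 without order 1 P1), the number higher from 0 to 1 (Hoxc5 without order 1 N2), the median log2 ratio from -0.73 (without order 2 P1) to -0.14, and the number detected from 8 to 11 in Tomato+ and 9 to 12 in Tomato- cells. Without order 1 N2 no Tomato- cells were left in order 1, so the size rule rested on order 2 alone. There 11.6% of all genes that could be called were higher and 21.2% lower. With any other set left out, 4.37% to 6.17% were higher and 5.13% to 8.18% lower. The mean ratio of Hoxa10 ran from -0.44 to 0.45, of Hoxc10 from -0.72 to 0.55, of Hoxa7 from -0.89 to 0.56 and of Hoxc6 from -1.09 to 0.34, so their direction depends on single sets. Rounding, the cell filter, TMM-scaled totals and removal of cells with Ptprc or Pecam1 reads left Hoxa9 and Hoxc4 as the called genes. The causes of the changes were not tested. Depth limits the low genes: by a floor of 3 counts, 0 counts in a group allow up to 0.0210 CPM in Tomato+ and 0.0238 CPM in Tomato- cells.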
